A study of Caenorhabditis elegans with 24 samples.

Results

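Strains of Caenorhabditis elegans that carry the ceh-60 mutation together with a pqm-1 mutation were compared with the strain that carries the ceh-60 mutation alone, using RNA from whole day 1 adults. The groups were taken from the genotype labels and hold 9 of the 24 libraries in the series, with 3 libraries each. The ok485 double mutant is ceh-60(ok1485); pqm-1(ok485) (strain DLS420), the rhd90 double mutant is ceh-60(ok1485); pqm-1(rhd90) (strain DLS423), and the ceh-60 mutant is ceh-60(ok1485) (strain DLS357), so that all 9 libraries carry ok1485. The single mutants pqm-1(ok485) (strain DLS421) and pqm-1(rhd90) (strain DLS424) and the wild type N2, also day 1 adults with 3 libraries each, are given where they show the same step with ceh-60 intact. Day 4 adults of the wild type and the ceh-60 mutant, with 3 libraries each, served only to choose genes that respond to ceh-60 loss. The labels do not say which part of a gene an allele removes or alters, nor whether replicates were separate cultures, so that the p-values cover the spread among these libraries, which may be technical.

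The product of ceh-60 is a PBX-type homeodomain factor, and pqm-1 codes for a transcription factor with zinc fingers. Both are known to act in the intestine, the tissue that makes the vitellogenins, which are yolk proteins taken up by the growing oocytes. PQM-1 is also known for its opposition to the forkhead factor DAF-16 in insulin signalling, and for binding near genes of growth and metabolism.

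The counts were deposited in 2 tables. All libraries with a pqm-1 allele are in one table and all ceh-60 and wild type libraries in the other, so that in each comparison of a double mutant with the ceh-60 mutant the pqm-1 genotype and the table cannot be told apart. Both comparisons also share the same 3 ceh-60 libraries. The contrast of the double mutants with each other stays within a table. A difference between tables that is equal with and without ceh-60 cancels in the interaction, which is the difference of a double mutant from the ceh-60 mutant minus that of the pqm-1 single mutant from the wild type. Total counts in the 9 libraries ranged from 18809461 to 25398922. Levels below are CPM, counts brought to a common library total after TMM scaling over the 18 day 1 libraries, and differences are log2 fold changes ± SE from edgeR's quasi-likelihood test, which passed a gene at a Benjamini-Hochberg adjusted p under 0.05 over 13589 genes.

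The mutated genes were examined first. pqm-1 (WBGene00004096; reverse strand of chromosome II, 11150299 to 11152600; WormBase release 260) stood at 4.84, 5.42 and 4.46 CPM in the ok485 double mutant, at 22.7, 22.1 and 25.1 CPM in the rhd90 double mutant, and at 29.9, 28.6 and 28.1 CPM in the ceh-60 mutant. The groups did not overlap, and the ok485 double mutant was lowest. pqm-1 fell by 2.56 ± 0.09 on the log2 scale in the ok485 double mutant (edgeR adjusted p = 5.14e-12) and by 0.31 ± 0.08 in the rhd90 double mutant (edgeR adjusted p = 0.0164). The smaller fall did not pass without ceh-60 replicate 2 (adjusted p = 0.0538) or without rhd90 double mutant replicate 1 (adjusted p = 0.0834). With ceh-60 intact, the level of pqm-1 averaged 5.71 ± 0.152 CPM with ok485, 14.3 ± 1.16 with rhd90 and 10.6 ± 0.383 in the wild type (SD, n = 3 each). ceh-60 (WBGene00017690; reverse strand of chromosome X, 6522596 to 6530148) stood at 1.34, 1.38 and 1.19 CPM in the ok485 double mutant, 1.97, 1.51 and 1.18 CPM in the rhd90 double mutant and 1.8, 0.975 and 1.22 CPM in the ceh-60 mutant. All 3 groups overlapped, and neither difference passed (log2 fold changes -0.04 ± 0.22 and 0.23 ± 0.22, edgeR adjusted p = 0.935 and 0.539).

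In the ok485 double mutant 1115 genes were higher and 783 lower than in the ceh-60 mutant, which is 8.21% and 5.76% of the genes tested. In the rhd90 double mutant 933 genes were higher and 405 lower, or 6.87% and 2.98%. Of these, 704 rose and 111 fell at least 2-fold in the ok485 double mutant, against 159 and 35 in the rhd90 double mutant (5.18% and 0.817% of the genes tested, against 1.17% and 0.258%). These counts rested heavily on single libraries. The ok485 count of 1898 was 786 without ceh-60 replicate 2 and 680 without ok485 double mutant replicate 2. The rhd90 count of 1338 was 475 without ceh-60 replicate 2, 650 without ceh-60 replicate 3, 473 without rhd90 double mutant replicate 1 and 601 without its replicate 3. Compared directly, the ok485 double mutant was higher than the rhd90 double mutant for 921 genes (6.78%) and lower for 1351 (9.94%). That count of 2272 was 1336 without ok485 double mutant replicate 2, 1184 without rhd90 double mutant replicate 1 and 1480 without its replicate 3.

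The vitellogenins were lower in the ok485 double mutant for 5 of 6 genes, with a median log2 fold change of -1.46 against -0.01 over all genes. With rhd90 1 of the 6 was lower and 1 higher (median 0.29, against 0.02 over all genes). Among all genes 5.76% were lower and 8.21% higher with ok485, and 2.98% and 6.87% with rhd90. In RNA from whole animals, fewer intestinal cells and less RNA per cell cannot be told apart. vit-2 (chromosome X, 5101032 to 5106173) fell with either allele. It stood at 1534, 588 and 1076 CPM in the ok485 double mutant, 483, 351 and 473 CPM in the rhd90 double mutant and 2055, 3835 and 2936 CPM in the ceh-60 mutant. Every double mutant library was below every ceh-60 library, and every rhd90 double mutant library was below every ok485 one. The log2 fold change was -1.46 ± 0.26 for ok485 (edgeR adjusted p = 0.00283) and -2.75 ± 0.27 for rhd90 (edgeR adjusted p = 1.1e-05), and both passed under all 11 alternatives. Those 11 are another normalization, no filter on low counts, a fit of the compared groups alone, DESeq2, the replicate block and each of the 6 libraries left out in turn; a 2-fold minimum was applied only to counts of genes, not to single genes. Between the double mutants vit-2 was higher in ok485 by 1.29 ± 0.25 on the log2 scale (edgeR adjusted p = 0.00239).

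vit-5 and vit-6 differed in sign or size between the alleles. vit-5 (chromosome X, 3403471 to 3408603) stood at 8.47, 5.19 and 5.81 CPM in the ok485 double mutant, 102, 43 and 147 CPM in the rhd90 double mutant and 11.7, 53.5 and 23.1 CPM in the ceh-60 mutant. All ok485 libraries were below the ceh-60 range, and the rhd90 libraries overlapped it at the low end. vit-5 fell by 2.18 ± 0.47 on the log2 scale in the ok485 double mutant (edgeR adjusted p = 0.00607, and 0.0519 without ceh-60 replicate 2) and rose by 1.73 ± 0.41 in the rhd90 double mutant (edgeR adjusted p = 0.0137). The rise did not pass without ceh-60 replicate 3 (0.0668), without rhd90 double mutant replicate 3 (0.0831) or in a fit of the compared groups alone (0.0748). The difference between the double mutants, -3.91 ± 0.47 (edgeR adjusted p = 4.62e-05), passed under all 11 alternatives.

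vit-6 (chromosome IV, 8261134 to 8266462) was at 257, 79.5 and 159 CPM in the ok485 double mutant, 1400.3, 334 and 1371 CPM in the rhd90 double mutant and 284.12, 1003 and 713 CPM in the ceh-60 mutant. The ok485 libraries lay below the ceh-60 range and the rhd90 libraries overlapped it. vit-6 fell by 2.01 ± 0.48 in the ok485 double mutant (edgeR adjusted p = 0.0101), though not without ceh-60 replicate 2 (0.0653) or ok485 double mutant replicate 2 (0.0623), and its value in the rhd90 double mutant was 0.64 ± 0.46 (edgeR adjusted p = 0.404). The double mutants differed by -2.65 ± 0.49 (edgeR adjusted p = 0.00151). vit-3 and vit-4 fell in the ok485 double mutant by 1.46 ± 0.44 and 1.24 ± 0.33 (edgeR adjusted p = 0.0365 and 0.0171). Without ceh-60 replicate 2 these adjusted p-values were 0.22 and 0.142, and without ok485 double mutant replicate 2 they were 0.171 and 0.0964. Without ok485 double mutant replicate 3 they were 0.0833 and 0.0615, and neither passed in a fit of the compared groups alone. For vit-3 the value without ceh-60 replicate 3 was 0.0802. vit-1 passed in neither comparison (-0.33 ± 0.32 in ok485 and 0.30 ± 0.31 in rhd90). The count of 5 lower genes was 1 without ceh-60 replicate 2, 2 without ok485 double mutant replicate 2 and 3 without its replicate 3. vit-1 and vit-2, and vit-3, vit-4 and vit-5, are near-identical genes, and reads that mapped to several places were not counted, so their single values are uncertain.

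**Figure D1:**
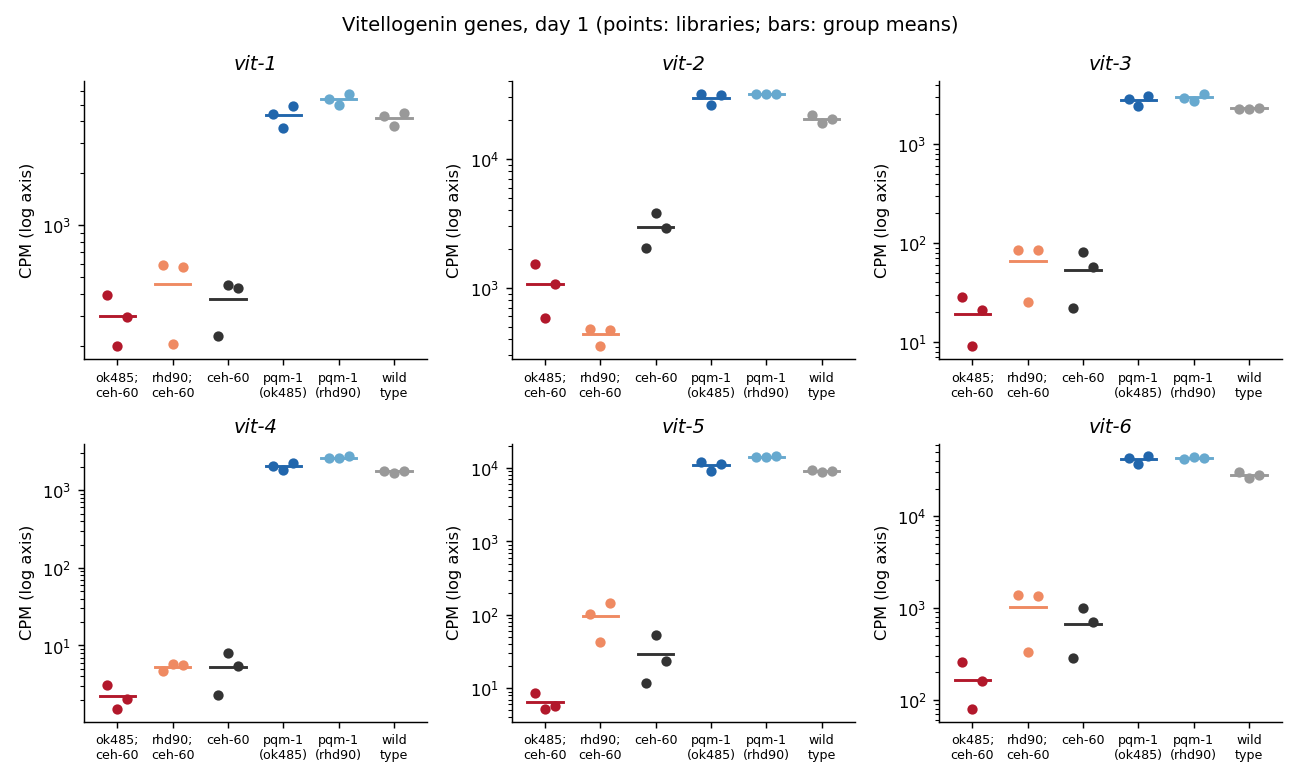
Level of each vitellogenin in CPM (log axis) in every day 1 library, by genotype; points are libraries and bars are group means. vit-2 lies lower in both double mutants than in the ceh-60 mutant, while vit-5 lies at 5.19 to 8.47 CPM in the ok485 double mutant and at 43 to 147 CPM in the rhd90 double mutant.

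All 6 genes together took 0.228%, 0.0900% and 0.160% of the counts in ok485 double mutant libraries, 0.277%, 0.0988% and 0.278% in rhd90 double mutant libraries and 0.262%, 0.551% and 0.423% in the ceh-60 mutant. The ok485 libraries lay below the ceh-60 range and the rhd90 libraries overlapped it. The differences of the means were -0.253 and -0.194 percentage points (two-sided exact permutation test, p = 0.1 and 0.3, where 0.1 is the smallest p that 3 against 3 allows). Most of this share in the ceh-60 mutant was vit-2. With rhd90 5 of the 6 genes had a positive log2 fold change and 1, vit-2, a negative one. With ceh-60 intact the summed level was 91584 ± 9935 CPM with ok485, 99966 ± 995 with rhd90 and 66215 ± 4369 in the wild type. In the ceh-60 background it was 1556 ± 673 CPM in the ok485 double mutant, 2096 ± 978 in the rhd90 double mutant and 4069 ± 1418 in the ceh-60 mutant (SD, n = 3 each). The vit-2 interaction was -2.002 ± 0.36 for ok485 and -3.39 ± 0.36 for rhd90 (edgeR adjusted p = 0.00616 and 0.000291).

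Genes that respond to ceh-60 loss were chosen from the day 4 libraries, which enter neither comparison. In those, 720 tested genes were at least 2-fold higher in the ceh-60 mutant than in the wild type. On day 1 the rhd90 double mutant was higher than the ceh-60 mutant for 217 of the 720 and lower for 14 (median log2 fold change 0.39, quartiles 0.18 and 0.62). Of all genes 6.87% were higher and 2.98% lower there (median 0.02). The ok485 double mutant was higher for 101 and lower for 45 (median 0.09, quartiles -0.25 and 0.36), against 8.21% and 5.76% of all genes (median -0.01). The 45 lower genes were thus near the share over all genes. The median member stood at 4.8, 4.71 and 4.56 CPM in the ok485 double mutant, 6.48, 5.46 and 5.99 CPM in the rhd90 double mutant and 4.86, 4.24 and 4.64 CPM in the ceh-60 mutant. The rhd90 libraries were all above the ceh-60 range, and the ok485 libraries were within it.

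**Figure D2:**
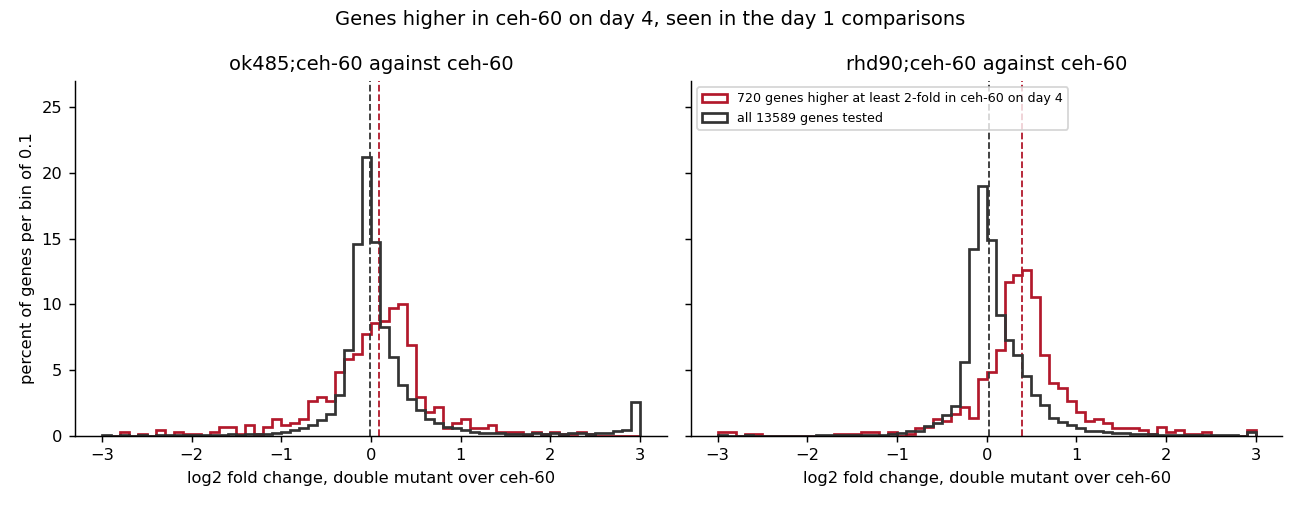
Distribution of log2 fold changes against the ceh-60 mutant for the 720 genes that were higher in ceh-60 on day 4 and for all 13589 genes, in each double mutant; dashed lines are medians and the outermost bins hold all values beyond the axis. The 720 genes have a median of 0.09 with ok485 and 0.39 with rhd90.

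The rhd90 count of 217 was 98 without ceh-60 replicate 2, 143 without ceh-60 replicate 3, 107 without rhd90 double mutant replicate 1 and 131 without its replicate 3. The ok485 count of 101 was 38 without ceh-60 replicate 2 and 45 without ok485 double mutant replicate 2, and its 45 lower genes were 27 and 21 in those fits and 25 without ok485 double mutant replicate 3. The 14 lower genes of rhd90 were 8 without ceh-60 replicate 3 and 9 without rhd90 double mutant replicate 3. With ceh-60 intact the same genes were higher for 429 and lower for 9 in pqm-1(ok485) against the wild type (median 0.64, with 26.7% and 20.9% of all genes called), and higher for 377 and lower for 7 in pqm-1(rhd90) (median 0.66, with 17.6% and 10.5% of all genes called). The ok485 interaction was positive for 2 and negative for 113 of the 720 (median -0.57, against 0.265% and 4.17% of all genes). In the rhd90 interaction none of the 720 passed by edgeR (median -0.28), against 0.0809% and 0.191% of all genes. At an unadjusted p under 0.05 it was positive for 10 and negative for 135 of them, and by DESeq2 14 were negative. Of the 56 genes at least 2-fold lower in ceh-60 on day 4, 10 were higher and 8 lower in the ok485 double mutant (median -0.01), against 6 and 3 in the rhd90 double mutant (median 0.15). The shares over all genes were 8.21% and 5.76% with ok485 and 6.87% and 2.98% with rhd90. ins-35, an insulin-like peptide gene among the largest day 4 rises, stood at 9.99, 7.81 and 7.74 CPM in the ok485 double mutant, 12.35, 8.89 and 10.3 CPM in the rhd90 double mutant and 6.79, 7.72 and 8.06 CPM in the ceh-60 mutant, and passed in neither comparison.

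Several genes that rose with both alleles lay next to each other. argk-1 (WBGene00009706, chromosome V, 16103894 to 16105950, forward strand), an arginine kinase, stood at 80.1, 144 and 120.0 CPM in the ok485 double mutant, 35.5, 68.8 and 66 CPM in the rhd90 double mutant and 10.1, 4.43 and 5.48 CPM in the ceh-60 mutant. cth-1 (WBGene00009048, 16100627 to 16102750, forward strand), a cystathionine gamma-lyase, stood at 187, 238 and 218 CPM in the ok485 double mutant, 229, 218 and 259 CPM in the rhd90 double mutant and 63.6, 49.9 and 43.4 CPM in the ceh-60 mutant. In neither gene did a double mutant library reach down to the ceh-60 range. argk-1 rose by 4.10 ± 0.40 and 3.08 ± 0.39 on the log2 scale in the ok485 and rhd90 double mutants (edgeR adjusted p = 1.4e-05 and 0.000165). cth-1 rose by 2.04 ± 0.20 and 2.17 ± 0.20 (edgeR adjusted p = 1.89e-05 and 7.57e-06).

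The 3 tested genes just before them on chromosome V were higher as well. WBGene00009047 (16086572 to 16088217) stood at 13.9, 16.6 and 14.5 CPM in the ok485 double mutant, 9.54, 8.95 and 11 CPM in the rhd90 double mutant and 4.7, 1.79 and 2.53 CPM in the ceh-60 mutant. F22B8.7 (16094584 to 16097320) stood at 40.6, 53.7 and 47.6 CPM in the ok485 double mutant, 40.5, 44.8 and 45.6 CPM in the rhd90 double mutant and 21.6, 14.3 and 16.7 CPM in the ceh-60 mutant. str-7 (16097985 to 16100209, reverse strand), of the chemoreceptor family of seven-transmembrane proteins, was named after its values were seen; it stood at 4.24, 3.86 and 4.11 CPM in the ok485 double mutant, 3.9, 3.22 and 4.13 CPM in the rhd90 double mutant and 0.736, 0.325 and 0.656 CPM in the ceh-60 mutant. None of these groups of double mutant libraries overlapped the ceh-60 libraries. The rises were 2.31 ± 0.31 and 1.70 ± 0.31 for WBGene00009047, 1.43 ± 0.16 and 1.32 ± 0.16 for F22B8.7, and 2.83 ± 0.40 and 2.71 ± 0.40 for str-7, in the ok485 and rhd90 double mutants. All 10 calls on the 5 genes passed under all 11 alternatives.

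The 5 genes span 19379 bases. In that span with 30000 bases on either side, 16 genes were tested, and these 5 were the ones higher in both double mutants. They were also higher with ceh-60 intact: argk-1 by 4.11 ± 0.43 in pqm-1(ok485) and 4.00 ± 0.43 in pqm-1(rhd90) against the wild type, and cth-1 by 2.33 ± 0.21 and 2.77 ± 0.21. Neither gene passed in an interaction; for argk-1 the values were -0.01 ± 0.55 and -0.92 ± 0.60. The step thus separates every day 1 library with a pqm-1 allele from every day 1 library without, which is also how the tables are split, and pqm-1 genotype and table cannot be told apart for these genes.

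**Figure D3:**
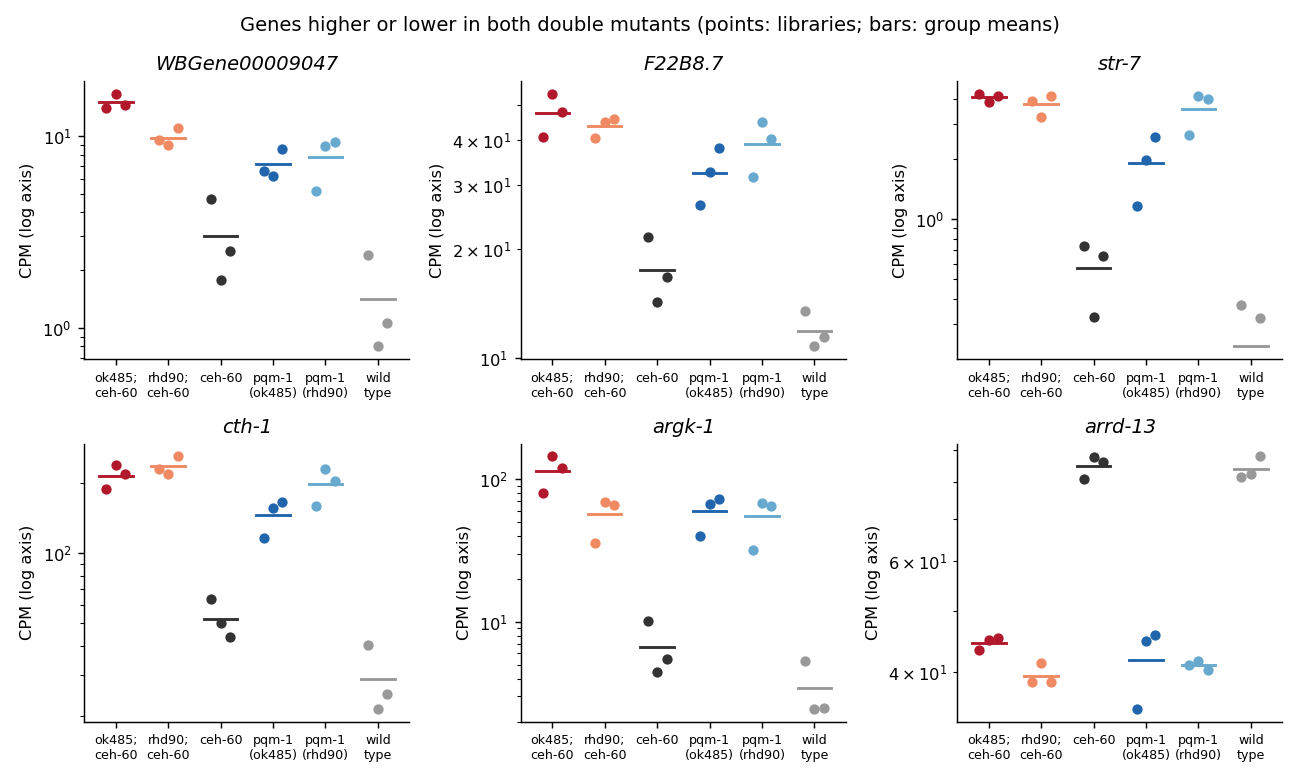
Levels in CPM (log axis) of 6 genes that moved the same way in both double mutants, in every day 1 library by genotype; bars are group means, and 1 wild type library with str-7 at 0 cannot be drawn on the log axis. The 5 chromosome V genes are higher and arrd-13 is lower in all day 1 libraries with a pqm-1 allele than in those without.

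Other genes that rose with both alleles included T19D12.1, ugt-64 and clec-258. ugt-64, a UDP-glucuronosyltransferase of the family that conjugates small molecules, stood at 61.6, 52.2 and 55.7 CPM in the ok485 double mutant, 66.3, 58.7 and 56.3 CPM in the rhd90 double mutant and 31.2, 23.8 and 37.4 CPM in the ceh-60 mutant. It rose by 0.88 ± 0.11 and 0.98 ± 0.11. clec-258, a C-type lectin, stood at 5.49, 5.65 and 6.2 CPM in the ok485 double mutant, 3.52, 2.81 and 4.13 CPM in the rhd90 double mutant and 0.818, 0.122 and 0.469 CPM in the ceh-60 mutant. It rose by 3.61 ± 0.34 and 2.88 ± 0.35 (edgeR adjusted p = 1.38e-05 and 0.000104). For both genes the double mutant libraries were all above the ceh-60 libraries. T19D12.1 rose by 0.99 ± 0.14 and 1.19 ± 0.14. cyp-35B2, a cytochrome P450, rose by 1.91 ± 0.31 in the rhd90 double mutant and by 1.23 ± 0.31 in the ok485 double mutant (edgeR adjusted p = 0.00117 and 0.0142), the smaller rise not passing without ceh-60 replicate 2 (0.0712).

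Among falls shared by both alleles, ranked by the log2 fold change nearer to 0, vit-2 came first, followed by F55G11.4 and arrd-13. arrd-13 (chromosome II, 13758408 to 13761233), an arrestin domain protein, stood at 43.3, 44.9 and 45.2 CPM in the ok485 double mutant, 38.5, 41.2 and 38.5 CPM in the rhd90 double mutant and 81, 87.7 and 85.9 CPM in the ceh-60 mutant. It fell by 0.93 ± 0.08 and 1.11 ± 0.08 on the log2 scale (edgeR adjusted p = 1.9e-06 and 1.85e-07). rpl-37, a protein of the large ribosomal subunit, stood at 28.9, 27.5 and 22.8 CPM in the ok485 double mutant, 26.7, 22.6 and 23.1 CPM in the rhd90 double mutant and 42.6, 41.6 and 43.3 CPM in the ceh-60 mutant, and fell by 0.69 ± 0.09 and 0.81 ± 0.09. Neither gene overlapped between a double mutant and the ceh-60 mutant. Both genes also stood apart with ceh-60 intact: arrd-13 was at 41.8 ± 6.02 CPM with ok485, 40.9 ± 0.657 with rhd90 and 84 ± 3.42 in the wild type, so that genotype and table cannot be told apart here either.

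Sperm genes and cuticle collagens were higher in the ok485 double mutant. The major sperm proteins form the cytoskeleton of the crawling nematode sperm, and the collagens build the cuticle that is renewed at each larval moult. Of 65 sperm genes tested, 56 were higher and none lower in the ok485 double mutant by edgeR (median log2 fold change 2.83), with none lower by DESeq2 and 1 at an unadjusted p under 0.05. In the rhd90 double mutant none passed by edgeR or DESeq2, 1 was higher at an unadjusted p under 0.05, and the median was -0.15. The double mutants differed directly, with 57 of the 65 higher in ok485 and none lower by edgeR, DESeq2 or an unadjusted p (median 2.996). Against the ceh-60 mutant 8.21% of all genes were higher with ok485 and 6.87% with rhd90. Between the double mutants 6.78% of all genes were higher in ok485. The median sperm gene stood at 2.25, 6.02 and 2.92 CPM in the ok485 double mutant, 0.151, 0.78 and 0.499 CPM in the rhd90 double mutant and 0.613, 0.162 and 0.89 CPM in the ceh-60 mutant. The ok485 libraries were all above the other groups, with replicate 2 highest and ceh-60 replicate 2 low. Without ok485 double mutant replicate 2 the count of 56 was 28, and without ceh-60 replicate 2 it was 33. msp-53, a major sperm protein gene, stood at 1.21, 3.26 and 2.57 CPM in the ok485 double mutant, 0.114, 0.312 and 0.182 CPM in the rhd90 double mutant and 0.204, 0.0812 and 0.328 CPM in the ceh-60 mutant, a rise of 3.51 ± 0.57 in ok485 (edgeR adjusted p = 0.00174). All ok485 libraries were above those of both other groups, which overlapped. The msp genes are near-identical copies, so that single values are uncertain.

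Of 116 collagen genes, 64 were higher and 3 lower in the ok485 double mutant (median 1.30), against 5 higher and 1 lower in the rhd90 double mutant (median 0.31). Between the double mutants 54 were higher and 4 lower in ok485 (median 1.17), against 6.78% and 9.94% of all genes. In the comparisons with ceh-60 the shares over all genes were 8.21% and 5.76% for ok485, and 6.87% and 2.98% for rhd90. The 5 higher collagens of rhd90 were thus below the share over all genes. The count of 64 was 22 without ok485 double mutant replicate 2 and 26 without ceh-60 replicate 2, and the count of 5 was 0 without ceh-60 replicate 2, 3 without ceh-60 replicate 3, and 1, 9 and 2 without rhd90 double mutant replicate 1, 2 or 3. The 3 lower collagens were lost without ceh-60 replicate 1 or 2 or ok485 double mutant replicate 2. col-149 stood at 11.2, 31.5 and 17.7 CPM in the ok485 double mutant, 4.73, 6.35 and 5.49 CPM in the rhd90 double mutant and 4.29, 2.8 and 6.84 CPM in the ceh-60 mutant, a rise of 2.12 ± 0.36 in ok485 (edgeR adjusted p = 0.0023) with every ok485 library above both other groups. With ceh-60 intact, 54 sperm genes and 90 collagens were higher in pqm-1(ok485) than in the wild type, while in pqm-1(rhd90) 25 collagens were higher and the median sperm gene had a log2 fold change of -0.70. Of all genes 26.7% were higher in pqm-1(ok485) and 17.6% in pqm-1(rhd90). The 25 collagens were near the second of these shares. No sperm gene passed in either interaction by edgeR or DESeq2; at an unadjusted p under 0.05 it was 1 lower for ok485 and 2 higher for rhd90.

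**Figure D4:**
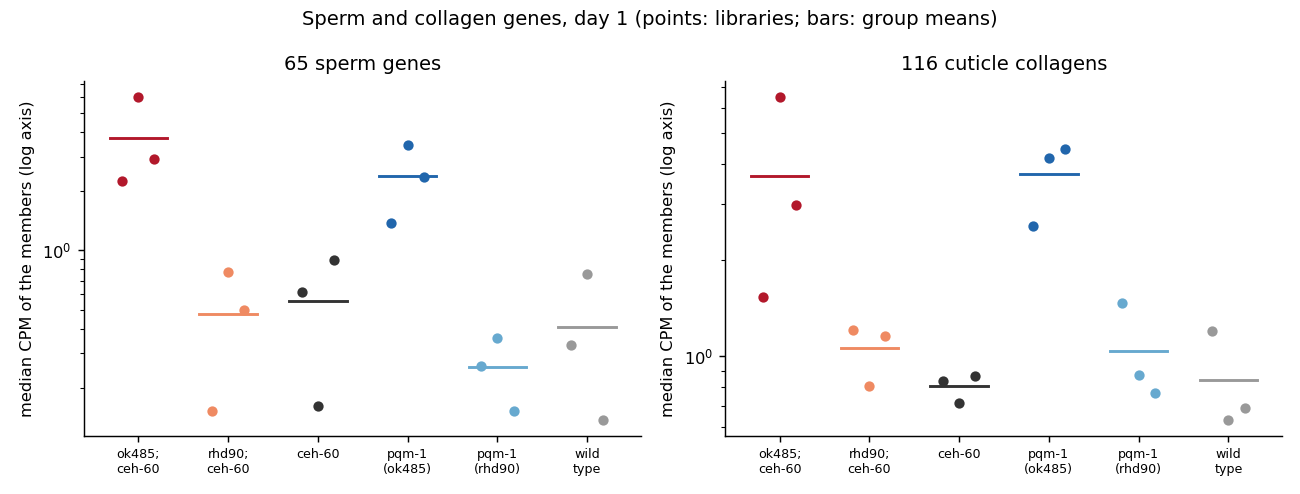
Median level in CPM (log axis) of 65 sperm genes and of 116 cuticle collagens in every day 1 library, by genotype; each point is a library. For sperm genes the ok485 double mutant lies at 2.25 to 6.02 CPM, above the rhd90 double mutant and the ceh-60 mutant.

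Markers of the other germ line stages were counted as well. Of 25 germ line and meiosis genes 1 was higher and 1 lower in the ok485 double mutant, and of 25 oocyte and eggshell genes none was higher and 1 lower by edgeR, with 0 and 5 at an unadjusted p under 0.05 and 0 and 2 by DESeq2. Their medians were -0.03 and -0.07. With rhd90 2 genes of either list were lower and none higher by edgeR, with medians of -0.07 and -0.16. By DESeq2 3 of either list were lower and none higher. At an unadjusted p under 0.05 it was 7 lower and 0 higher germ line genes, and 13 lower and 1 higher oocyte genes; 23 of the 25 oocyte genes had a negative log2 fold change with rhd90. Of 47 neuronal genes 5 were higher and 2 lower in the ok485 double mutant (median 0.26), against 6 higher in the rhd90 double mutant (median 0.37). Over all genes 8.21% were higher and 5.76% lower with ok485, and 6.87% and 2.98% with rhd90. The ok485 counts of neuronal genes were near those shares. Body wall muscle and pharynx genes did not pass in the ok485 double mutant by edgeR or DESeq2; at an unadjusted p under 0.05 there were 2 higher muscle genes and 2 lower pharynx genes. With rhd90 1 of 22 muscle genes was lower. Whether the developmental stage of the harvested animals takes part in these differences was not tested.

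Digestive genes of the intestine rose more widely in the rhd90 double mutant. Of 21 intestinal protease genes 15 were higher and none lower there by edgeR, DESeq2 or an unadjusted p (median 0.50), against 6 higher and 3 lower in the ok485 double mutant (median 0.18). Between the double mutants 1 was higher and 14 lower in ok485 (median -0.46), against 6.78% and 9.94% of all genes. In the comparisons with ceh-60 the shares over all genes were 6.87% and 2.98% for rhd90, and 8.21% and 5.76% for ok485. With ceh-60 intact 10 proteases were higher and 2 lower in pqm-1(ok485) than in the wild type, against 26.7% and 20.9% of all genes. In pqm-1(rhd90) 17 were higher and 0 lower by edgeR, against 17.6% and 10.5% of all genes. Without rhd90 double mutant replicate 1 the count of 15 was 9, and none of the 3 lower genes remained without ok485 double mutant replicate 2. asp-6, an aspartyl protease, stood at 1848, 1969.8 and 1774 CPM in the ok485 double mutant, 2614, 2443 and 2475 CPM in the rhd90 double mutant and 1752, 1511 and 1519 CPM in the ceh-60 mutant. The rhd90 libraries were highest, with no overlap, a rise of 0.66 ± 0.07 (edgeR adjusted p = 2.52e-05) that also set them apart from ok485 (-0.43 ± 0.07, ok485 over rhd90). asp-12 stood at 15.7, 12.1 and 10.9 CPM in the ok485 double mutant, 69.3, 28.5 and 31.6 CPM in the rhd90 double mutant and 6.62, 7.43 and 6.61 CPM in the ceh-60 mutant. It rose by 2.65 ± 0.34 in rhd90 (edgeR adjusted p = 0.000165), and its value in ok485 was 0.90 ± 0.35 (edgeR adjusted p = 0.1), with no overlap among the 3 groups. asp-14 was raised in the other strain. It stood at 179.5, 193 and 152 CPM in the ok485 double mutant, 51.1, 50.2 and 57.5 CPM in the rhd90 double mutant and 71.7, 48.7 and 70.8 CPM in the ceh-60 mutant, a rise of 1.46 ± 0.17 in ok485 (edgeR adjusted p = 0.000122). Its ok485 libraries were above those of both other groups, which overlapped.

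cpl-1, a cathepsin L protease known for degrading yolk, differed in sign between the alleles. It stood at 677, 527 and 574 CPM in the ok485 double mutant, 1412, 918 and 1146 CPM in the rhd90 double mutant and 853, 918 and 823 CPM in the ceh-60 mutant. The ok485 libraries were below the ceh-60 range and the rhd90 libraries at or above it. It fell by 0.55 ± 0.12 in ok485 (edgeR adjusted p = 0.00679, and 0.051 without ok485 double mutant replicate 2) and rose by 0.42 ± 0.12 in rhd90 (edgeR adjusted p = 0.0343). The rise did not pass in 6 of 11 alternatives, with an adjusted p of 0.219 without rhd90 double mutant replicate 1 and 0.0868 without its replicate 3, and of 0.0728, 0.0695 and 0.119 without ceh-60 replicate 1, 2 or 3. The difference between the double mutants, -0.97 ± 0.12 (edgeR adjusted p = 5.99e-05), passed in all 11.

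Lysozymes and saposin-like proteins, which are antimicrobial proteins of the gut, were higher for 13 of 29 genes and lower for 3 in the rhd90 double mutant (median 0.34), against 5 and 3 in the ok485 double mutant (median -0.04). Among all genes it was 6.87% and 2.98% with rhd90 and 8.21% and 5.76% with ok485. The count of 13 was 8 without ceh-60 replicate 3 and 6 without rhd90 double mutant replicate 1 or 3, and the count of 5 was 1 without ceh-60 replicate 2 and 3 without ok485 double mutant replicate 2. spp-4, a saposin-like gene, stood at 26.9, 21.9 and 22.5 CPM in the ok485 double mutant, 43.7, 31.5 and 44.7 CPM in the rhd90 double mutant and 21.9, 21.9 and 20.9 CPM in the ceh-60 mutant, a rise of 0.89 ± 0.15 in rhd90 (edgeR adjusted p = 0.00165) with every rhd90 library above both other groups. lys-7, a lysozyme known in the defence against bacteria, fell in that strain. It stood at 192, 136 and 159 CPM in the ok485 double mutant, 59.1, 20.4 and 31.8 CPM in the rhd90 double mutant and 162, 134 and 128 CPM in the ceh-60 mutant. The rhd90 libraries lay below both other groups, which overlapped. lys-7 fell by 1.91 ± 0.31 in rhd90 (edgeR adjusted p = 0.00127), with 0.20 ± 0.30 in ok485 (edgeR adjusted p = 0.705) and 2.11 ± 0.32 between the double mutants, ok485 over rhd90 (edgeR adjusted p = 0.000332).

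**Figure D5:**
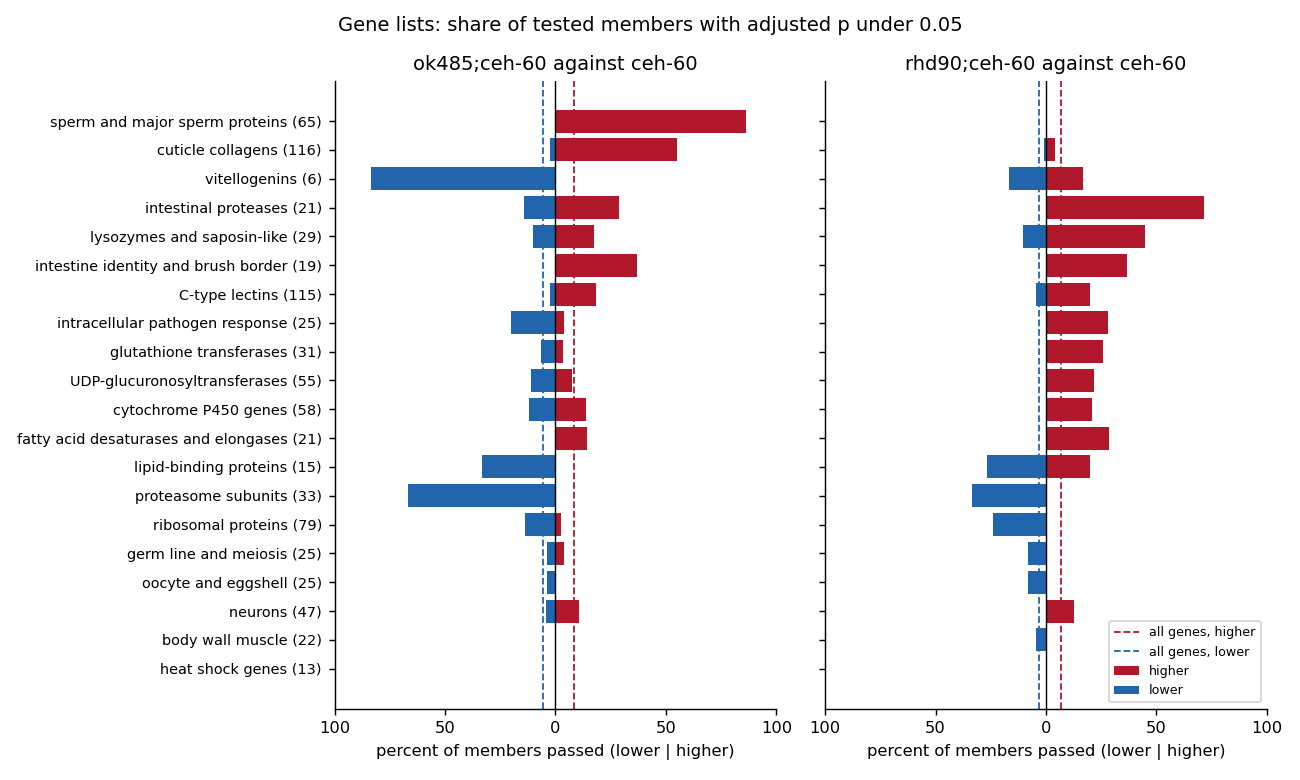
Percent of the tested members of each gene list that were higher or lower than in the ceh-60 mutant, for both double mutants; dashed lines give the same percents over all 13589 genes. In the ok485 double mutant sperm genes and collagens stand out as higher and proteasome subunits and vitellogenins as lower, and in the rhd90 double mutant intestinal proteases stand out as higher.

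Markers of intestinal identity were counted beside these groups. Of 19 such genes 7 were higher and none lower in either double mutant by edgeR, DESeq2 or an unadjusted p (medians 0.22 and 0.37). Among all genes 8.21% were higher and 5.76% lower with ok485, and 6.87% and 2.98% with rhd90. The count was 1 for ok485 without ceh-60 replicate 2 or ok485 double mutant replicate 2 and 3 without ceh-60 replicate 3, and it was 3 for rhd90 without ceh-60 replicate 2. elt-2, the GATA factor that specifies the intestine, stood at 13.1, 11.9 and 10.47 CPM in the ok485 double mutant, 19.7, 16.54 and 14.7 CPM in the rhd90 double mutant and 13.2, 11.2 and 11.9 CPM in the ceh-60 mutant. The rhd90 libraries were highest and the other groups overlapped, with a rise of 0.50 ± 0.12 in rhd90 (edgeR adjusted p = 0.0177) that did not pass without ceh-60 replicate 2 (0.0923), ceh-60 replicate 3 (0.0639) or rhd90 double mutant replicate 1 (0.126). lmp-1, a lysosomal membrane protein, rose by 0.22 ± 0.05 in ok485 and 0.40 ± 0.05 in rhd90 (edgeR adjusted p = 0.00613 and 5.8e-05). The part of intestinal RNA content in the changes of single intestinal genes was not tested.

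Detoxification genes were higher more widely in the rhd90 double mutant. In the rhd90 double mutant 8 of 31 glutathione transferases, 12 of 55 UDP-glucuronosyltransferases and 12 of 58 cytochrome P450 genes were higher and none was lower by edgeR. By DESeq2 0, 1 and 0 of these were lower, and at an unadjusted p under 0.05 it was 0, 1 and 4. In the ok485 double mutant the counts of higher and lower genes were 1 and 2, 4 and 6, and 8 and 7. As shares these were 3.23% and 6.45%, 7.27% and 10.9%, and 13.8% and 12.1%, against 8.21% and 5.76% of all genes. For rhd90 the higher shares were 25.8%, 21.8% and 20.7%, against 6.87% of all genes. Without ceh-60 replicate 2 the rhd90 counts were 5, 4 and 4, without rhd90 double mutant replicate 1 they were 5, 6 and 6, and without its replicate 3 they were 5, 6 and 7, while the count of 12 transferases of the second family was 7 without ceh-60 replicate 3. The 8 higher P450 genes of ok485 ranged from 1 without ceh-60 replicate 2 to 7 without ceh-60 replicate 1, and its 6 lower glucuronosyltransferases were 2 without ceh-60 replicate 1 or ok485 double mutant replicate 2. With ceh-60 intact, 8, 30 and 21 genes in the same family order were higher and 3, 2 and 5 lower in pqm-1(ok485) than in the wild type. In pqm-1(rhd90) 15, 25 and 23 were higher and 0, 0 and 3 lower by edgeR. Of all genes, 26.7% and 20.9% were called for ok485 and 17.6% and 10.5% for rhd90. Higher genes outnumbered lower ones in these families when ceh-60 was intact, but they did so over all genes too. As shares the higher genes were 25.8%, 54.5% and 36.2% with ok485, the first near the share over all genes. With rhd90 they were 48.4%, 45.5% and 39.7%. Genotype and table cannot be told apart there. gst-39, a glutathione transferase, stood at 12.32, 11.4 and 12.1 CPM in the ok485 double mutant, 33.6, 26.5 and 29.5 CPM in the rhd90 double mutant and 20.9, 19.7 and 18.6 CPM in the ceh-60 mutant. The 3 groups did not overlap. It fell by 0.72 ± 0.13 in ok485 and rose by 0.60 ± 0.12 in rhd90 (edgeR adjusted p = 0.00296 and 0.00628), and both calls and the difference between the double mutants (-1.32 ± 0.13) passed under all 11 alternatives.

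cdr-4, a glutathione transferase-like gene named for its response to cadmium, stood at 44.4, 27.7 and 40.9 CPM in the ok485 double mutant, 224, 165 and 203 CPM in the rhd90 double mutant and 137, 123 and 99.3 CPM in the ceh-60 mutant. Again the 3 groups did not overlap. It fell by 1.67 ± 0.18 in ok485 (edgeR adjusted p = 3.8e-05) and rose by 0.72 ± 0.17 in rhd90 (edgeR adjusted p = 0.0127). The rise did not pass without ceh-60 replicate 3 (0.0709), or without rhd90 double mutant replicate 1 (0.0753) or 3 (0.0509). The double mutants differed by -2.39 ± 0.18 (edgeR adjusted p = 3.01e-07). With ceh-60 intact cdr-4 was at 8.34 ± 2.34 CPM with ok485, 13.8 ± 2.47 with rhd90 and 12.4 ± 0.91 in the wild type.

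Genes of the intracellular pathogen response, which is switched on by microsporidia and viruses, were also counted. Of 25 tested, 1 was higher and 5 lower in the ok485 double mutant (median -0.11), and 7 were higher and none lower in the rhd90 double mutant by edgeR (median 0.47), with 2 lower at an unadjusted p under 0.05 and none by DESeq2. Among all genes 8.21% were higher and 5.76% lower with ok485, and 6.87% and 2.98% with rhd90. Between the double mutants 1 was higher and 10 lower in ok485 (median -0.68), against 6.78% and 9.94% of all genes. The count of 7 was 2 without ceh-60 replicate 2, 1 without ceh-60 replicate 3, 1 without rhd90 double mutant replicate 1 and 3 without its replicate 3. The count of 5 was 3 without ceh-60 replicate 1 or 2 or ok485 double mutant replicate 2 or 3. pals-6 stood at 0.303, 0.413 and 0.277 CPM in the ok485 double mutant, 4.7, 2.18 and 3.58 CPM in the rhd90 double mutant and 1.27, 1.34 and 0.703 CPM in the ceh-60 mutant. skr-4, a Skp1-related ubiquitin ligase component, stood at 15.3, 11.2 and 11.9 CPM in the ok485 double mutant, 61.5, 33.7 and 39.2 CPM in the rhd90 double mutant and 25.2, 33.1 and 22.2 CPM in the ceh-60 mutant. For both genes every ok485 library was below and every rhd90 library above the ceh-60 range. pals-6 fell by 1.74 ± 0.40 in ok485 and rose by 1.66 ± 0.32 in rhd90 (edgeR adjusted p = 0.00834 and 0.00446), and both calls passed under all 11 alternatives. skr-4 fell by 1.07 ± 0.19 and rose by 0.74 ± 0.18 (edgeR adjusted p = 0.00299 and 0.0171), the rise not passing without ceh-60 replicate 3 (0.0843) or rhd90 double mutant replicate 1 (0.127), nor in a fit of the compared groups alone (0.0681).

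Proteasome subunits were lower by small amounts. Of 33 tested, 22 were lower in the ok485 double mutant (median -0.20) and 11 in the rhd90 double mutant (median -0.14), with none higher by edgeR, DESeq2 or an unadjusted p. Among all genes 5.76% were lower and 8.21% higher with ok485, and 2.98% and 6.87% with rhd90. pas-3, a subunit of the proteolytic core, stood at 313, 299 and 304 CPM in the ok485 double mutant, 318, 319 and 320.4 CPM in the rhd90 double mutant and 352, 389 and 367 CPM in the ceh-60 mutant. Both double mutants lay below the ceh-60 range, with falls of 0.28 ± 0.04 and 0.21 ± 0.04 (edgeR adjusted p = 0.00168 and 0.00704, the second 0.0538 without ceh-60 replicate 2). The count of 22 was 9 without ceh-60 replicate 2 and 7 without ok485 double mutant replicate 2. The count of 11 was 1 without ceh-60 replicate 2, 3 without ceh-60 replicate 3 or rhd90 double mutant replicate 1 or 3, and 7 without its replicate 2. With ceh-60 intact 31 and 23 subunits were lower in pqm-1(ok485) and pqm-1(rhd90) than in the wild type, against 20.9% and 10.5% of all genes. For this group, too, genotype and table cannot be told apart.

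Ribosomal protein genes were lower for 11 and higher for 2 of 79 in the ok485 double mutant (median -0.08). With rhd90 19 were lower and none higher by edgeR, DESeq2 or an unadjusted p (median -0.13). Over all genes 5.76% were lower and 8.21% higher with ok485, and 2.98% and 6.87% with rhd90. DESeq2 gave 20 lower genes for ok485 and 35 for rhd90. The count of 11 was 6 without ceh-60 replicate 3 or ok485 double mutant replicate 2 or 3, and the 2 higher genes were lost without any of ceh-60 replicate 2 and 3 or the 3 ok485 double mutant libraries. The count of 19 was 4 without ceh-60 replicate 3 or rhd90 double mutant replicate 1, 7 without its replicate 3 and 10 without ceh-60 replicate 1 or 2.

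Lipid carriers differed by member. far-2, a secreted fatty acid and retinol binding protein, stood at 1376, 1398 and 1319 CPM in the ok485 double mutant, 1183, 1298 and 1301 CPM in the rhd90 double mutant and 1950.2, 1609 and 1633 CPM in the ceh-60 mutant. All double mutant libraries were below the ceh-60 range. far-2 fell by 0.46 ± 0.09 in rhd90 (edgeR adjusted p = 0.00446) and by 0.34 ± 0.09 in ok485 (edgeR adjusted p = 0.0166), the second not passing without ceh-60 replicate 1 (0.0743) or ok485 double mutant replicate 2 (0.056) or 3 (0.0607). lbp-8, an intracellular lipid carrier of the lysosome-to-nucleus signal, stood at 5.97, 5.46 and 4.86 CPM in the ok485 double mutant, 7.65, 10.2 and 6.44 CPM in the rhd90 double mutant and 9.93, 13.8 and 9.93 CPM in the ceh-60 mutant, and fell by 1.05 ± 0.17 in ok485 (edgeR adjusted p = 0.00226). Its ok485 libraries lay below both other groups, which overlapped. fat-3, a fatty acid desaturase, stood at 39.9, 52.3 and 42 CPM in the ok485 double mutant, 33.7, 27.5 and 33.4 CPM in the rhd90 double mutant and 32.7, 28.1 and 31.3 CPM in the ceh-60 mutant, and rose by 0.54 ± 0.10 in ok485 (edgeR adjusted p = 0.00344), where all libraries were above the others.

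Targets of DAF-16, the factor that PQM-1 is known to oppose, were also counted. Of 16 tested 1 was higher and 1 lower in the ok485 double mutant by edgeR (sod-3 and icl-1), with 2 and 2 by DESeq2 or at an unadjusted p under 0.05. Each edgeR count was 6.25% of the 16, near the 8.21% and 5.76% of all genes. The sod-3 call was lost without ceh-60 replicate 1 or 2 or ok485 double mutant replicate 1 or 3 (adjusted p up to 0.121), and the icl-1 call without ceh-60 replicate 1 or 2 or ok485 double mutant replicate 2 (adjusted p up to 0.127). None passed in the rhd90 double mutant by edgeR, with 4 higher and 1 lower at an unadjusted p under 0.05 and 1 higher by DESeq2. Between the double mutants 5 were lower in ok485 and none higher by edgeR (median -0.34), with 4 lower and none higher by DESeq2 and 5 lower and 1 higher at an unadjusted p under 0.05. Of all genes 9.94% were lower and 6.78% higher there by edgeR. Heat shock genes passed in neither comparison by edgeR; of 13, DESeq2 gave 2 higher for ok485 and 1 lower for rhd90, and an unadjusted p under 0.05 gave 2 higher and 1 lower for ok485 and 1 lower for rhd90.

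Some of the largest single-gene differences went with 1 strain. tbb-6, a beta-tubulin, stood at 7.61, 4.36 and 6.04 CPM in the ok485 double mutant, 94.9, 43.6 and 51.9 CPM in the rhd90 double mutant and 43.7, 79 and 22.1 CPM in the ceh-60 mutant. The ok485 libraries were below all others, and the other groups overlapped. tbb-6 fell by 3.01 ± 0.38 in ok485 (edgeR adjusted p = 0.000246), with 0.40 ± 0.33 in rhd90 (edgeR adjusted p = 0.476). nhx-6, a sodium/proton exchanger, fell by 3.64 ± 0.66 in ok485 (edgeR adjusted p = 0.00304). pud-3, one of a pair of genes named for being raised in daf-2 mutants, stood at 18.9, 4.09 and 3.99 CPM in the ok485 double mutant, 146, 33.8 and 181 CPM in the rhd90 double mutant and 24.1, 35.9 and 20.2 CPM in the ceh-60 mutant. The double mutants did not overlap and differed by -3.74 ± 0.60 (edgeR adjusted p = 0.000608), with replicate 2 of rhd90 far below its other libraries. scrm-4, a phospholipid scramblase, stood at 2.59, 4.13 and 2.84 CPM in the ok485 double mutant, 16, 13.4 and 10.2 CPM in the rhd90 double mutant and 2.9, 2.11 and 2.11 CPM in the ceh-60 mutant, a rise of 2.47 ± 0.23 in rhd90 (edgeR adjusted p = 6.86e-06) with every rhd90 library above both other groups.

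For other genes the level was near 0 or sharply changed in 1 strain or 1 allele. Y50D7A.10 (chromosome III, 315460 to 321721) stood at 0.0432, 0.413 and 0.237 CPM in the ok485 double mutant, 15.3, 14.8 and 15.5 CPM in the rhd90 double mutant and 17.1, 17.3 and 19.4 CPM in the ceh-60 mutant. It fell by 6.26 ± 0.22 in ok485 (edgeR adjusted p = 7.23e-12), while pqm-1(ok485) was at 8.03 ± 1.18 CPM and the wild type at 18.2 ± 0.844. hid-1, a gene of neuropeptide secretion named after its values were seen, averaged 6 ± 0.58 CPM in the ok485 double mutant, against 23.4 ± 1.84 in the ceh-60 mutant, and 24.1 ± 1.11 in pqm-1(ok485) against 22.9 ± 1.25 in the wild type. col-135 stood at 37.3, 35.5 and 29.98 CPM in the ok485 double mutant, 1.21, 0.624 and 0.408 CPM in the rhd90 double mutant and 51.9, 46.2 and 47.1 CPM in the ceh-60 mutant. It fell by 5.95 ± 0.23 in rhd90 (edgeR adjusted p = 6e-11), and pqm-1(rhd90) was at 0.393 ± 0.105 CPM against 20.2 ± 1.94 in the wild type. C08F11.7 stood at 0.476, 0.367 and 0.514 CPM in the ok485 double mutant, 10.8, 8.01 and 10.2 CPM in the rhd90 double mutant and 0.368, 0.447 and 0.422 CPM in the ceh-60 mutant, a rise of 4.54 ± 0.20 in rhd90 (edgeR adjusted p = 2.75e-10), with 12.797 ± 2.02 CPM in pqm-1(rhd90) against 0.528 ± 0.106 in the wild type. Y50D7A.10 and hid-1 were thus lowest in a single strain, and col-135 and C08F11.7 moved in both strains with rhd90. Whether these levels follow the pqm-1 allele or other differences between the strains was not tested.

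At the adjusted threshold the interactions held far fewer genes than the comparisons. An interaction combines more group means than a comparison, so its SE is larger and fewer genes can pass. By edgeR at an unadjusted p under 0.05, 3147 genes were called for the ok485 interaction, against 3715 in the ok485 comparison. For rhd90 it was 1172 against 3508. The smaller counts therefore do not show that a pqm-1 allele acts alike with and without ceh-60. For ok485, 36 genes had a positive and 566 a negative interaction (0.265% and 4.17%), and for rhd90 11 and 26 (0.0809% and 0.191%). The ok485 count of 602 was 1044, 296 and 337 without wild type replicate 1, 2 or 3, 220 without ceh-60 replicate 1, and 354 and 235 without ok485 double mutant replicate 1 or 3. The rhd90 count of 37 was 68, 17 and 16 without wild type replicate 1, 2 or 3, and 24, 69 and 22 without ceh-60 replicate 1, 2 or 3. It was 16 without pqm-1(rhd90) replicate 2 or 3, and 18, 14 and 21 without rhd90 double mutant replicate 1, 2 or 3. vit-2 passed for both alleles under all 17 alternatives of each contrast, which for a single gene do not include the 2-fold minimum, as did pqm-1, which had interactions of -1.67 ± 0.12 and -0.74 ± 0.11 (edgeR adjusted p = 5.47e-07 and 0.0076). F55G11.4 had an interaction of -2.69 ± 0.43 for ok485 and cyp-13A5, a cytochrome P450, one of -2.32 ± 0.45 (edgeR adjusted p = 0.00352 and 0.00951), and both passed under all 17 alternatives. cls-3, a CLASP microtubule protein, had one of -1.98 ± 0.12 for rhd90 (edgeR adjusted p = 1.08e-07).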

How the data were processed

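RNA from whole animals was sequenced, and 2 tables of 12 libraries each were deposited. Reads were counted per gene without normalization by the authors, with featureCounts 1.5.2 on WormBase release 260 per the file headers; the submitters' processing notes name STAR 2.5.4. Per the file headers no option for strand or for reads that map to several places was set. Wild type and ceh-60 libraries are in 1 table and all libraries with a pqm-1 allele in the other, so genotype and table coincide. Growth is described in the labels only for the samples of the first table.

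The tables were joined by gene ID (46778 genes, 43818 of them with a symbol in a reference table of gene names). The 18 day 1 libraries were fitted together with edgeR 4.0.16 (R 4.3.3), using TMM scaling, its filter on low counts by group and quasi-likelihood F-tests with Benjamini-Hochberg adjustment over 13589 genes at 0.05. The SE is the log2 fold change divided by the square root of F. An interaction is the double mutant minus ceh-60, less the pqm-1 single mutant minus the wild type. The 720 and 56 genes of the day 4 lists came from a separate edgeR fit of day 4 wild type and ceh-60 libraries (12544 genes). The share of counts on vitellogenins was tested by exact permutation with scipy 1.17.1. The genes named were ceh-60, pqm-1, the vitellogenins, the 8 largest rises and falls in each comparison and shared by both, the 6 largest and smallest interactions and double mutant differences, the 6 largest day 4 changes in each direction, and up to 2 rising and 2 falling members of each of 37 lists. Genes in the first groups needed a mean of at least 5 CPM, and those in the comparisons no overlap between libraries. Other genes are said to be named after their values were seen. The members and lists were chosen with earlier results of these data known. Alternatives were DESeq2 1.42.0, RLE scaling, no filter, only the compared groups, the replicate number as a block, a 2-fold minimum (for counts of genes, not for single genes), and leaving out each library; the steps were tested on simulated data. No library pair agreed within sampling noise (chi-square per degree of freedom at least 3.74 between replicates). Promoter sequences and motifs were not analysed here.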

Additional observations from a re-analysis of the deposited data

Results flagged for a closer look

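The difference made by a pqm-1 allele was set against its value with ceh-60 intact by a test of the interaction, and the named genes that passed by edgeR are given here as log2 values, negative where the double mutant fell more, or rose less, relative to ceh-60 than the single mutant did relative to the wild type.

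For ok485 the yolk genes were all negative, at -2.57 for vit-6, -2.43 for vit-5, -2.002 for vit-2 and -1.46 for vit-4, and pqm-1 itself was at -1.67. The other negative genes were Y50D7A.10 (-5.09), F55G11.4 (-2.69), pitr-5 (-2.38), cyp-13A5 (-2.32) and col-135 (-0.999). Positive values were found for dod-21 (4.27), the aspartyl protease gene asp-12 (2.13), ZC317.7 (0.76), Y46H3C.7 (0.66), C07A9.9 (0.63) and egg-4 (0.44), an eggshell and egg activation gene. Of the 12 genes named for the size of their ok485 interaction, 5 passed under all 17 alternatives run on single genes (the 2-fold minimum was applied only to counts of genes), which were F55G11.4, Y46H3C.7, Y50D7A.10, ZC317.7 and cyp-13A5.

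For rhd90 the negative genes were vit-2 (-3.39), cls-3 (-1.98), C15A11.7 (-1.60), nspg-11 (-1.30), F43H9.4 (-1.12), twk-34 (-1.07) and pqm-1 (-0.74). The positive ones were WBGene00014954 (1.85), WBGene00014955 (1.79), F36D3.1 (0.68), usp-50 (0.62), die-1 (0.31) and sma-1 (0.28). Of the 12 named for size, 6 passed under all 17 of those alternatives, which were F36D3.1, F43H9.4, WBGene00014954, WBGene00014955, cls-3 and vit-2.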

How the results depend on the processing

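Counts of genes past the threshold moved with single libraries and with other choices. Leaving out each library in turn gave 680 to 1865 genes for the ok485 double mutant against ceh-60 (1898 with all libraries), 473 to 1498 for the rhd90 double mutant (1338), 220 to 1044 for the ok485 interaction (602), 14 to 69 for the rhd90 interaction (37) and 1184 to 2494 between the double mutants (2272). A 2-fold minimum left 815, 194, 214, 15 and 1011 genes in that order. DESeq2 gave 912 and 102 genes for the ok485 and rhd90 interactions, only the compared groups in the fit gave 388 for ok485, and no filter gave 151 for rhd90. Without the filter the share of higher genes was 69.8% for ok485 and 54.7% for rhd90, against 58.7% and 69.7% with it. The vitellogenin share differed by -0.328 to -0.183 percentage points for ok485 and by -0.269 to -0.125 for rhd90 when single libraries were left out, and kept its value with the filtered genes as denominator. Of the called genes named by the rule, 70 passed in the ok485 comparison under every alternative run on single genes, which leave out the 2-fold minimum, and 42 did not, 54 did and 30 did not in the rhd90 comparison, and all 12 did between the double mutants. Directions that turned were of genes that had not passed. ceh-60 ranged from -0.23 to 0.25 over the libraries left out, with 0.25 without ceh-60 replicate 1 and 0.026 without ok485 double mutant replicate 3. In the rhd90 double mutant tbb-6 ranged from -0.018 to 0.95, vit-3 from -0.082 to 0.74 and vit-4 from -0.36 to 0.49; tbb-6 was -0.018 without rhd90 double mutant replicate 1, vit-3 was -0.082 without ceh-60 replicate 1, and vit-4 was -0.023 without the filter, -0.36 without ceh-60 replicate 1, and -0.037 and -0.036 without rhd90 double mutant replicate 2 or 3. The cause of these shifts was not tested. Replicate numbers were not used as pairs in the main fit, and the libraries were mixed on this point. Same-numbered double mutant and ceh-60 libraries correlated at -0.12, -0.35 and -0.06 for ok485 and at -0.11, -0.21 and 0.05 for rhd90. Same-numbered double mutants correlated at 0.27, 0.20 and -0.003. Of these, replicates 1 and 2 correlated best with their own number, and not every pair was over 0.1. The share of counts on the mitochondrial genome was highest in replicate 1 in every day 1 group. Whether replicate numbers stand for shared batches was not tested. With the replicate block the counts were 2247 for ok485, 1883 for rhd90, 943 and 61 for the interactions and 2684 between the double mutants, each higher than in the main fit. The number of libraries, 3 per group, and the low counts of sperm genes limit what single genes can show.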

Other observations

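C-type lectins, secreted carbohydrate-binding proteins often induced by bacteria, were higher for 21 and lower for 3 of 115 genes in the ok485 double mutant (median log2 fold change 0.31), against 23 and 5 in the rhd90 double mutant (median 0.26). The shares over all genes were 8.21% and 5.76% with ok485 and 6.87% and 2.98% with rhd90. Without ceh-60 replicate 2 or ok485 double mutant replicate 2 the ok485 count of 21 was 11. The rhd90 count of 23 was 13 without ceh-60 replicate 2, 14 without rhd90 double mutant replicate 1 and 15 without its replicate 3.

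Fatty acid desaturases and elongases were higher for 3 of 21 genes with ok485 and 6 with rhd90, with none lower by edgeR, DESeq2 or an unadjusted p under 0.05 (medians 0.11 and 0.23). As shares the higher genes were 14.3% and 28.6%, against 8.21% and 6.87% of all genes. elo-6, a fatty acid elongase, stood at 532, 563 and 519 CPM in the ok485 double mutant, 753, 612 and 698 CPM in the rhd90 double mutant and 550.4, 414 and 528 CPM in the ceh-60 mutant. The rhd90 libraries were highest, a rise of 0.47 ± 0.10 on the log2 scale (edgeR adjusted p = 0.00618). dsc-4, the microsomal triglyceride transfer protein that loads lipid onto lipoproteins, stood at 131, 143 and 135 CPM in the ok485 double mutant, 122, 134 and 115.7 CPM in the rhd90 double mutant and 113, 85.1 and 97.5 CPM in the ceh-60 mutant. No double mutant library reached the ceh-60 range, with rises of 0.46 ± 0.10 and 0.33 ± 0.10 (edgeR adjusted p = 0.00552 and 0.044).

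Some genes moved in both strains with rhd90 by amounts close to each other. Y69H2.3 stood at 189, 178 and 185 CPM in the ok485 double mutant, 34.6, 25.7 and 21.4 CPM in the rhd90 double mutant and 152, 117 and 139.6 CPM in the ceh-60 mutant, and pqm-1(rhd90) was at 19.5 ± 1.01 CPM against 110.2 ± 10.01 in the wild type (SD, n = 3 each). It fell by 2.32 ± 0.13 in the rhd90 double mutant (edgeR adjusted p = 1.19e-08), with an interaction of 0.18 ± 0.19. kin-32, a focal adhesion kinase, and mop-25.3 were named after their values were seen. kin-32 stood at 11.8, 10.8 and 11.4 CPM in the ok485 double mutant, 5.61, 4.73 and 5.45 CPM in the rhd90 double mutant and 11.118, 10.3 and 10.3 CPM in the ceh-60 mutant, and mop-25.3 fell by 1.26 ± 0.10 in rhd90 (edgeR adjusted p = 1.08e-06). cls-3 was high in a single strain, at 96.5, 87 and 88.6 CPM in pqm-1(rhd90) against 22.4 to 33.3 CPM in all other day 1 libraries.

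Of the 37 genes with an rhd90 interaction 16 lie on chromosome V, or 43.2%, against 18.9% of the genes tested. Chromosome X held 8, or 21.6%, against 14.1% of the genes tested, and every other chromosome held less than its share. Chromosome V also held 178 genes, or 29.6%, of the ok485 interaction and 336, or 25.1%, of the rhd90 comparison with ceh-60. The count of 37 was 14 to 69 when single libraries were left out.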
